A study of Homo sapiens with 12 samples.

Results

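The miR-30 family was followed through the TGF-β1-induced epithelial-mesenchymal transition (EMT) of A549 cells. Its members here were the 8 mature miRNAs hsa-miR-30a-5p, hsa-miR-30b-5p, hsa-miR-30c-5p, hsa-miR-30d-5p, hsa-miR-30e-5p, hsa-miR-30a-3p, hsa-miR-30d-3p, and hsa-miR-30e-3p (named below without the species prefix in most places), chosen by name out of 2588 mature miRNAs in the read-count table. Of these, miR-30c-5p has 2 entries, since it is cut from a pair of precursors, and the entry with the higher total was used. A549 is an established human lung adenocarcinoma line with alveolar epithelial traits. Small RNA was sequenced from cells at 0 h, that is before TGF-β1, and after 24 and 96 h with it, with 2 libraries per time point and 2 sequencing runs summed in each library. Per the methods, all cells were first kept without serum, and medium with TGF-β1 was renewed every other day. No untreated culture at 24 or 96 h was analysed here, so the effects of TGF-β1 and of time in culture cannot be told apart. By the dates in the sample titles, the second runs of both 24 h libraries shared a date, and those of both 96 h libraries a later one. Those of the 0 h libraries were split between these dates. At 96 h against 24 h the date of the second run and the time therefore cannot be told apart either. Nothing in the labels says that the libraries of a time point came from separate cultures, and the p-values then measure only the spread between these libraries.

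A miRNA hairpin is cut by Drosha and Dicer into a duplex, of which the 5p or the 3p strand is loaded into an Argonaute protein while its partner is mostly degraded. The loaded strand, or guide, finds mRNAs chiefly through its seed, the bases 2 to 8 from its 5′ end, so miRNAs with the same seed tend to share many targets. The miR-30 guides are abundant in lung and other epithelia and are known for repressing SNAI1, a transcription factor that turns off epithelial genes, as well as BECN1 of the autophagy pathway and the matrix protein gene CCN2.

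Sequences of 5 of the 8 members were matched in the RefSeq miRNA table (GRCh38.p14). They are shown because the seed defines the family and because some members differ by so little that their reads could be exchanged. Seeds are in capitals, and all sequences run from 5′ to 3′.
miR-30a-5p: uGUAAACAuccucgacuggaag
miR-30e-5p: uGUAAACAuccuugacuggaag
miR-30c-5p: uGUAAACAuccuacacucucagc
miR-30a-3p: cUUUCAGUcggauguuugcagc
miR-30e-3p: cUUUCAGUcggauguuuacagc
The 5p strands have the seed GUAAACA and the 3p strands of miR-30a and miR-30e have UUUCAGU. Counted from the 5′ end, miR-30a-5p and miR-30e-5p differ by 1 base (C13U), and miR-30a-3p and miR-30e-3p differ by 1 base as well (G18A). Against miR-30c-5p, miR-30a-5p has 5 differences over the first 22 positions, all of them outside the seed. How reads that fit 2 members were assigned is not given in the sources used here, so the levels of miR-30a and miR-30e carry that uncertainty.

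On GRCh37, the build that the submitters' processing notes name as hg19, the matched members come from 2 pairs of hairpins. MIR30E (chr1:41220027-41220118, plus strand) and MIR30C1 (chr1:41222956-41223044, plus strand) lie 2837 bases apart in an intron of NFYC, a protein-coding gene read in the same direction. MIR30A (chr6:72113254-72113324, minus strand) lies in an intron of the long noncoding RNA gene LINC00472, and MIR30C2 (chr6:72086663-72086734, minus strand) overlaps an exon of the same gene. The mature miR-30c-5p of MIR30C1 and MIR30C2 is the same sequence, so its reads cannot be divided between the hairpins. Their 3p strands, which are not members, can be told apart:
miR-30c-1-3p: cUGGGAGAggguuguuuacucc
miR-30c-2-3p: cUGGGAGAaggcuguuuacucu
These differ at 3 positions (G9A, U12C, and C22U).

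The libraries held 2335185 to 5971197 reads of mature miRNAs, the most at 96 h. miR-21-5p alone took between 52.4% of these reads, in the second 0 h library, and 65.5%, in the first 96 h library. Levels are given as CPM after trimmed mean of M-values (TMM) normalization, which sets the libraries to each other by the bulk of the miRNAs, and where stated as plain CPM of all miRNA reads. The TMM factors ran from 1.36 in the second 0 h library to 0.738 in the first 96 h library, so these scales diverge with time. As a check of the label, the summed level of 4 epithelial miRNAs (miR-200c-3p, miR-141-3p, miR-203a-3p, and miR-205-5p) was 24.2 to 33.0 CPM at 0 h and 29.5 to 30.9 at 96 h. This sum covers opposite moves. miR-203a-3p had 7.33 and 5.97 CPM at 0 h and 11.3 and 10.9 at 96 h. miR-141-3p, with 5 to 13 reads per library, had 3.30 and 3.88 CPM at 0 h and 1.13 and 2.17 at 96 h. miR-200c-3p had 22.4 and 13.7 CPM at 0 h and 17.0 and 17.9 at 96 h. miR-205-5p, a marker of basal epithelium, had 0 to 3 reads per library. The summed level of 5 fibroblast miRNAs was 1.19 to 2.57 CPM at 0 h and 9.23 to 10.9 at 96 h, with miR-214-3p at 0 reads in all 6 libraries and miR-145-5p, the largest part at 96 h, at 1 and 0 reads at 0 h and 29 and 25 at 96 h. That of 7 blood miRNAs was 135 to 138 CPM at 0 h and 29.5 to 36.1 at 96 h, of which 95.9 to 97.1% of the reads were miR-486-5p; the other 6 together had 5 to 16 reads per library, with miR-223-3p and miR-150-5p at 0 throughout. Of the other lists, 2 endothelial miRNAs (miR-126-3p and miR-126-5p) summed to 404 to 461 CPM at 0 h and 456 to 495 at 96 h, and 3 muscle miRNAs stayed at 1.83 CPM or less. The part of these shifts in the results below was not tested.

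hsa-miR-30a-5p, the guide strand of MIR30A, was the most abundant member by far and the fifth most abundant miRNA in each of the 6 libraries. Its level was 19191 and 16896 TMM-normalized CPM at 0 h, 19867 and 22633 in those of 24 h, and 26842 and 26464 in those of 96 h. Depth was not limiting for it, since its share of all reads in the first 0 h library was 2.24% with a 95% Wilson interval of 2.22 to 2.26%. Intervals like this cover counting error only, since the reads carry no molecular identifiers. The libraries of 96 h lay above all others, and those of 24 h lay above those of 0 h. The log2-fold change at 96 h against 0 h was 0.56 ± 0.15 (SE, 2 libraries per time point; edgeR quasi-likelihood test, adjusted p = 0.0117). Against 24 h it was 0.33 ± 0.15 with an adjusted p of 0.159, and from 0 to 24 h it was 0.24 ± 0.15 with an adjusted p of 0.325. Without the first or the second 96 h library the adjusted p at 96 h against 0 h was 0.0715 or 0.0543.

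The partner strand hsa-miR-30a-3p had a like course. Its TMM-normalized level was 2038 and 1970 CPM at 0 h, 2179 and 2370 in those of 24 h, and 2983 and 3080 in those of 96 h, without overlap between any of the time points. Its log2-fold change at 96 h against 0 h was 0.60 ± 0.13 (adjusted p = 0.00522 with edgeR), the smallest adjusted p among the members. This was also the member whose adjusted p stayed under 0.05 with each of the 6 libraries left out in turn, at most 0.0437.

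hsa-miR-30d-5p was the next guide in abundance. It stood at 6101 and 5146 TMM-normalized CPM at 0 h, 5242 and 5744 in those of 24 h, and 7241 and 6605 in those of 96 h. The 96 h libraries were above the rest and the earlier time points overlapped. Its log2-fold change at 96 h against 0 h was 0.30 ± 0.15, with an adjusted p of 0.113. Without the first 0 h library the change was 0.47, and without the second it was 0.19. hsa-miR-30c-5p came after miR-30d-5p and was the flattest of the guides on this scale. Its levels were 3094 and 2614 CPM at 0 h, 2987 and 3189 in those of 24 h, and 3344 and 2991 in those of 96 h, and all 3 time points overlapped. The log2-fold change at 96 h was 0.15 ± 0.14, with an adjusted p of 0.423, and it was 0.32 without the first and 0.042 without the second 0 h library.

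hsa-miR-30b-5p was the least abundant guide, at 389 and 361 TMM-normalized CPM at 0 h, 397 and 423 in those of 24 h, and 552 and 497 in those of 96 h. Its 3 time points did not overlap, and the log2-fold change at 96 h against 0 h was 0.48 ± 0.14 (adjusted p = 0.0189 with edgeR), a call that was lost without the first (adjusted p = 0.142) or the second (0.0512) 96 h library. hsa-miR-30e-5p, the guide of MIR30E and 1 base away from miR-30a-5p, was lower at 96 h than at 0 h. It had 979 and 1061 CPM at 0 h, 980 and 877 in those of 24 h, and 833 and 830 in those of 96 h. The 96 h libraries were the lowest of the 6, and the log2-fold change of -0.29 ± 0.13 did not pass the test (adjusted p = 0.0955 with edgeR). It passed with a filter of 10 CPM on the mean (-0.44, adjusted p = 0.0178), but not with DESeq2 size factors (-0.22, adjusted p = 0.215). That filter lowered the log2-fold change of each member, that of miR-30a-5p for one from 0.56 to 0.42.

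The other 3p strands had changes of opposite sign on this scale. hsa-miR-30e-3p had 404 and 347 TMM-normalized CPM at 0 h, 408 and 416 in those of 24 h, and 475 and 494 in those of 96 h, so that its time points did not overlap. Its log2-fold change at 96 h was 0.37 ± 0.14, with an adjusted p of 0.0557. hsa-miR-30d-3p was the rarest member, with 91 to 152 reads per library. Its levels were 33.4 and 45.4 CPM at 0 h, 35.7 and 34.6 in those of 24 h, and 24.1 and 28.8 in those of 96 h, the last below all the others. The log2-fold change was -0.58 ± 0.22, with an adjusted p of 0.0563, and without the second 0 h library it was -0.33 (adjusted p = 0.344). With the filter of 10 CPM, which lowered the log2-fold change of each member, it passed the adjusted p (-0.73, adjusted p = 0.0271 with edgeR).

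In order of level, the members at 0 h were miR-30a-5p, miR-30d-5p, miR-30c-5p, miR-30a-3p, miR-30e-5p, and then miR-30b-5p and miR-30e-3p with means of 375 ± 19.8 and 375 ± 40.3 CPM (SD, n = 2), and miR-30d-3p. The libraries of miR-30b-5p and miR-30e-3p overlapped at 0 h and those of other neighbours in the order did not. At 96 h miR-30b-5p and miR-30e-3p did not overlap, while miR-30c-5p and miR-30a-3p did, with means of 3168 ± 249 and 3031 ± 68.4 CPM. The level is reads per miRNA, and as all of these strands are 22 to 23 bases long where the sequence was matched, no length correction was made.

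**Figure D1:**
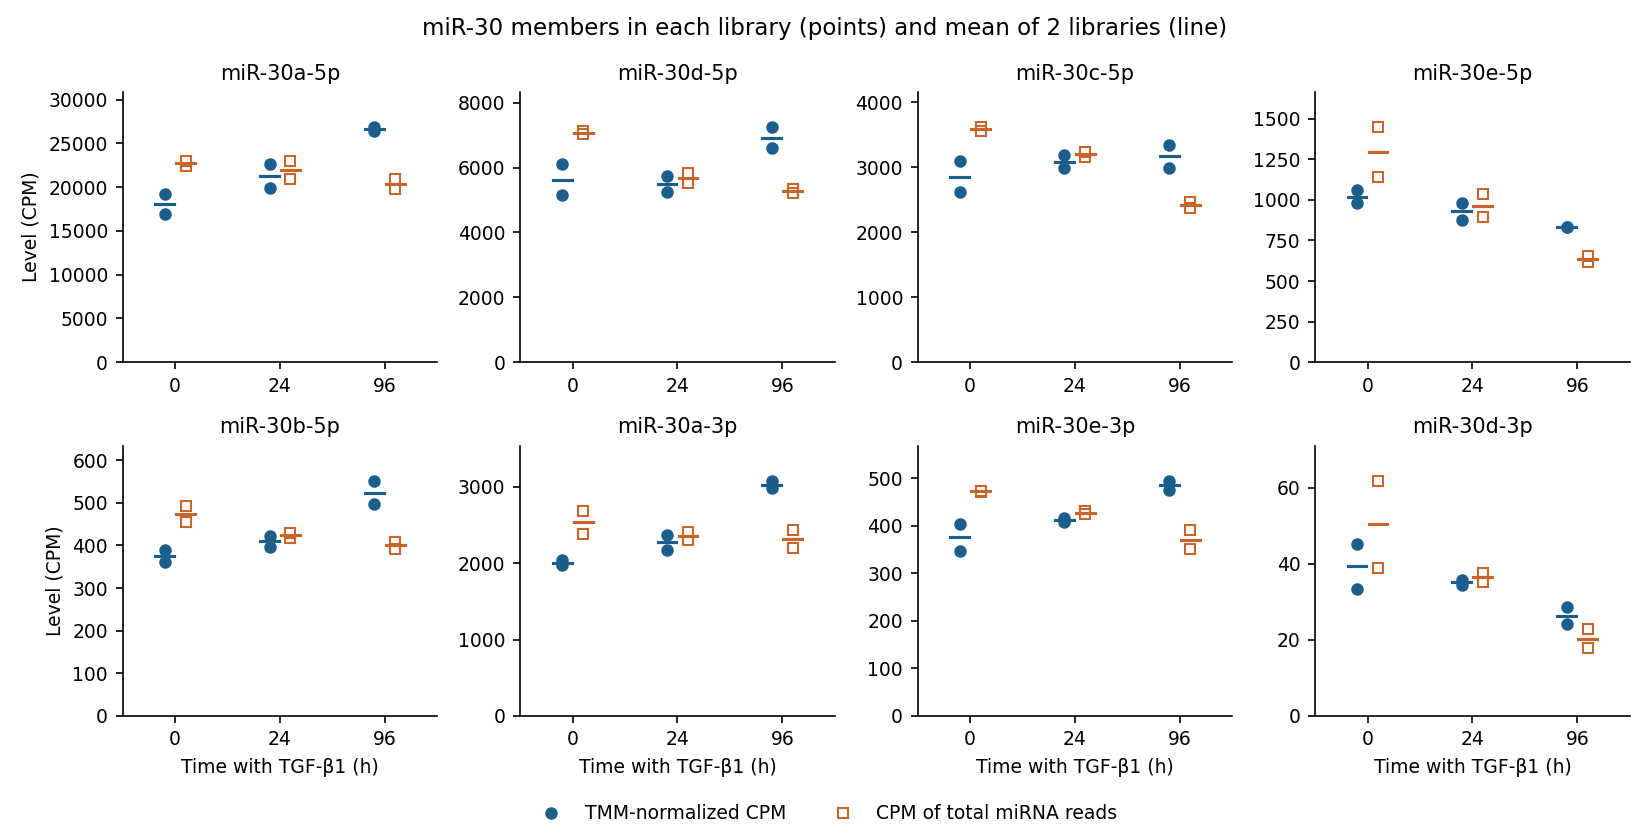
Level of each miR-30 member in each of the 6 libraries against time with TGF-β1 in h, as TMM-normalized CPM (filled circles) and as CPM of all miRNA reads (open squares), with the mean of 2 libraries as a line; each panel starts at 0 and has its own scale. On the TMM scale miR-30a-5p goes from 16896 to 19191 CPM at 0 h to 26464 to 26842 at 96 h, whereas on the scale of all reads the 96 h squares lie below the 0 h squares for 7 of the 8 members and overlap them for miR-30a-3p.

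All 8 members passed the expression filter and were among the 491 miRNAs tested. The study used 2 thresholds, 0.05 for the adjusted p and 1 for the absolute log2-fold change, and 0 of 8 members passed both at 96 h against 0 h, where 25.9% of the tested miRNAs did. By the adjusted p alone, 3 of 8 members passed, all of them higher on the TMM scale, where 44.0% of the tested miRNAs passed and 22.8% were higher. Without adjustment, 5 of 8 had a p under 0.05 (background 55.8%). At 24 h against 0 h, 0 of 8 passed both thresholds (background 3.46%) or the adjusted p alone (background 7.13%), and 0 had an unadjusted p under 0.05 (background 28.3%). At 96 h against 24 h, 0 of 8 passed both thresholds (background 5.91%) or the adjusted p alone (background 12.6%), and 4 had an unadjusted p under 0.05 (background 31.0%). The DESeq2 Wald test passed 0 members at both thresholds in these comparisons, and by its adjusted p alone 4 members at 96 h against 0 h and 1 member at 96 h against 24 h. The share of all tested miRNAs at its adjusted p alone is not given here, so these counts are no result about the family. With 2 libraries per time point an exact permutation test of one value cannot go below 0.333. At 96 h against 0 h the libraries did not overlap for 5 higher and 2 lower members of 8 (background 33.0% and 38.7%, and 71.7% for both directions). These counts were not tested against the background and are no result about the family. The median log2-fold change of the members at 96 h was 0.34, against -0.10 for all tested miRNAs.

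The direction of these changes depended on the scaling. With the total miRNA reads in place of TMM, all 8 members had a log2-fold change below 0 at 96 h against 0 h, and the median of all tested miRNAs moved from -0.10 to -0.83. On that scale miR-30a-5p had a log2-fold change of -0.16 (adjusted p = 0.200 with edgeR) and miR-30a-3p one of -0.13 (adjusted p = 0.418). miR-30e-5p fell by 1.03 (adjusted p = 0.0012) and miR-30d-3p fell by 1.32 (adjusted p = 0.00278), past both thresholds, and miR-30c-5p and miR-30d-5p fell by 0.57 and 0.42 (adjusted p = 0.00384 and 0.0107). Over 5 scalings (TMM, DESeq2 size factors, upper quartile, total reads, and total reads without miR-21-5p), miR-30e-5p and miR-30d-3p were below 0 in 5 of 5. The adjusted p of miR-30e-5p was 0.0175 with the upper quartile and 0.00475 with total reads without miR-21-5p, and that of miR-30d-3p was 0.0146 and 0.00938. With DESeq2 size factors neither passed in edgeR, at -0.22 (adjusted p = 0.215) for miR-30e-5p and -0.51 (0.0903) for miR-30d-3p. miR-30a-5p, miR-30b-5p, miR-30a-3p, and miR-30e-3p were above 0 in 4 of 5, all but total reads, and the calls of the first 3 of these held with TMM and DESeq2 size factors only. miR-30d-5p was above 0 in 3 of 5, and miR-30c-5p in 2 of 5. The split of all calls moved likewise: 48.8% of the miRNAs past both thresholds at 96 h were higher with TMM, 58.6% with DESeq2 size factors, 35.1% with the upper quartile, 24.4% with total reads without miR-21-5p, and 10.7% with total reads. With DESeq2 size factors 5 members passed the adjusted p alone at 96 h. The share of all tested miRNAs that passed it on that scale is not given here, so this count is no result about the family.

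Set against the median of all tested miRNAs, 6 of 8 members were above it at 96 h under each of the 5 scalings. A scaling moves all miRNAs nearly alike, so this agreement follows from the construction and shows no stability. Relative to that median miR-30a-3p was higher by 0.70 to 0.71 on the log2 scale, miR-30a-5p by 0.66 to 0.67, and miR-30b-5p by 0.58 to 0.59. miR-30e-3p was above it by 0.47 to 0.48, miR-30d-5p by 0.40 to 0.41, and miR-30c-5p by 0.25 to 0.26. miR-30e-5p was -0.20 to -0.19 and miR-30d-3p -0.49 to -0.47 from it. The same quantity was 1.07 to 1.08 for miR-21-5p, the miRNA that fills most of these libraries. The difference of the members from the median was not tested as a group.

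**Figure D2:**
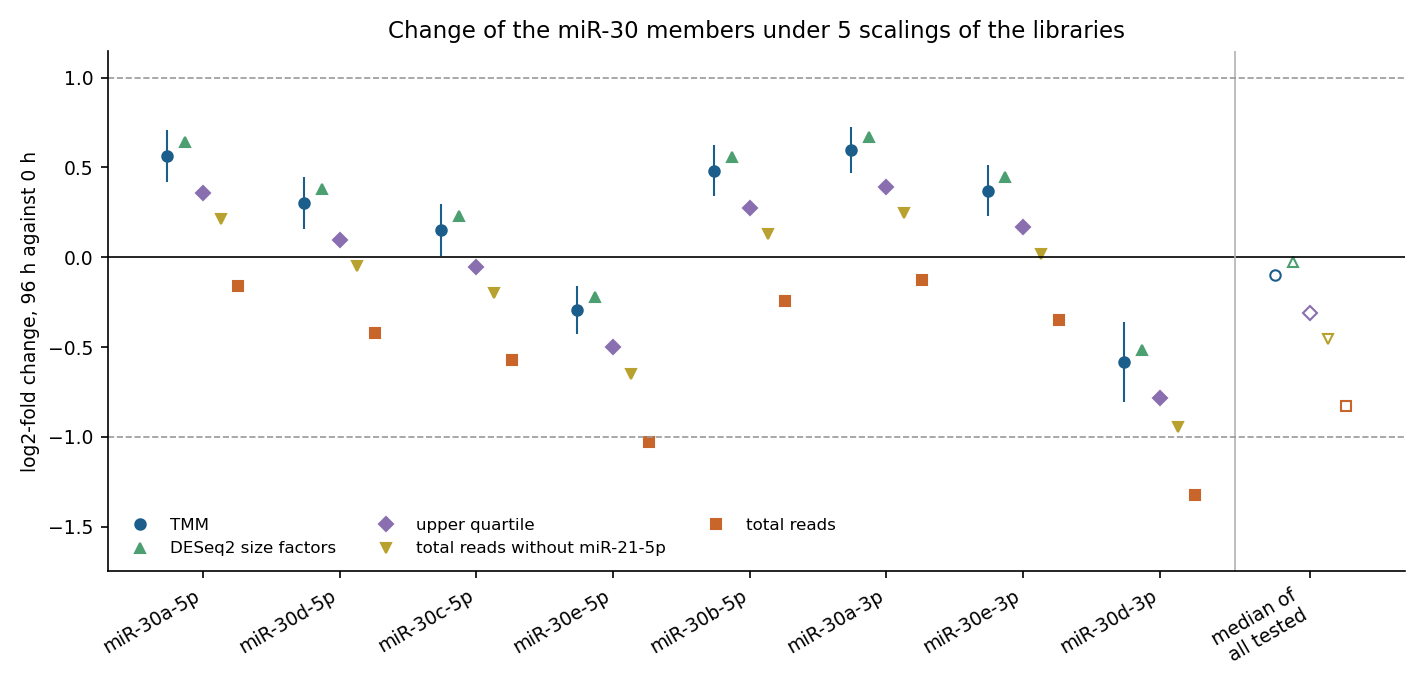
The log2-fold change at 96 h against 0 h (vertical axis) of each miR-30 member under 5 scalings of the libraries (symbols), with bars of 1 SE for TMM, and the median of all 491 tested miRNAs as open symbols at the right; the dashed lines mark the fold threshold of 1. miR-30e-5p and miR-30d-3p are below 0 under each scaling, while miR-30a-5p runs from 0.64 with DESeq2 size factors to -0.16 with total reads, and the open symbols shift with the members.

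Because a share within the family does not depend on how libraries are scaled, the composition of the 5 guide strands was compared next. miR-30a-5p supplied 64.5 and 64.8% of the guide reads at 0 h, 67.4 and 68.9% in those of 24 h, and 69.2 and 70.8% in those of 96 h. miR-30d-5p supplied 20.5 and 19.7% at 0 h, 17.8 and 17.5% in those of 24 h, and 18.7 and 17.7% in those of 96 h. Thus the leading guide had a larger share in each later library than in either 0 h library, and miR-30d-5p a smaller one. miR-30c-5p held 10.4 and 10.02% at 0 h, 10.1 and 9.70% in those of 24 h, and 8.62 and 8.00% in those of 96 h. miR-30e-5p held 3.29 and 4.07% at 0 h, 3.33 and 2.67% in those of 24 h, and 2.15 and 2.22% in those of 96 h. Both were lowest at 96 h without overlap with the earlier libraries. With both entries of miR-30c-5p summed, which hold nearly the same reads, its mean share was 18.5% at 0 h, 18.0% at 24 h, and 15.3% at 96 h, above that of miR-30d-5p at 0 and 24 h (18.3 and 16.0%) and below it at 96 h (16.8%). miR-30b-5p kept between 1.29 and 1.42% in the 6 libraries, with overlapping time points.

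The departure of a member from the other matched miRNAs with its seed was tested over 135 miRNAs in 50 seed groups, which hold the 5 members whose seed was matched. The group of miR-30e-5p held 3 miRNAs, with miR-30a-5p and miR-30c-5p, and lacked the unmatched guides miR-30b-5p and miR-30d-5p. miR-30e-5p departed from its seed group at 96 h against 0 h by -0.78 on the log2 scale (edgeR diffSpliceDGE, adjusted p = 0.0200), and was 1 of 6 miRNAs called (background 4.44%). At 24 h against 0 h its departure was -0.34 (adjusted p = 0.9999) and at 96 h against 24 h it was -0.44 (adjusted p = 0.678), with 0 miRNAs called in either comparison. Leaving out single libraries moved the first from -0.50 to -0.18, without the first and the second 24 h library, and the second from -0.60 to -0.28, without the second and the first. miR-30c-5p departed by -0.33 at 96 h (adjusted p = 0.559), and miR-30a-5p, which makes up most of the reads of the group, by 0.08. With limma's diffSplice, which sets each miRNA against the others rather than the sum, miR-30a-5p departed by 0.63 (adjusted p = 0.0125) and miR-30c-5p by 0.0015, so neither value held across tests. With the family formed by number and strand in the name, an alternative chosen after seeing the data that takes in all 5 guides, miR-30e-5p departed by -0.74 (adjusted p = 0.0195, background 6.54%), miR-30d-5p by -0.15, and miR-30b-5p by 0.03. The call of miR-30e-5p in the seed group was lost without any of 4 libraries: the second of 0 h (adjusted p = 0.0620), the first of 24 h (0.0507), the first of 96 h (0.463), and the second of 96 h (0.200). The departure was between -0.79 and -0.63 in these 4 fits.

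**Figure D3:**
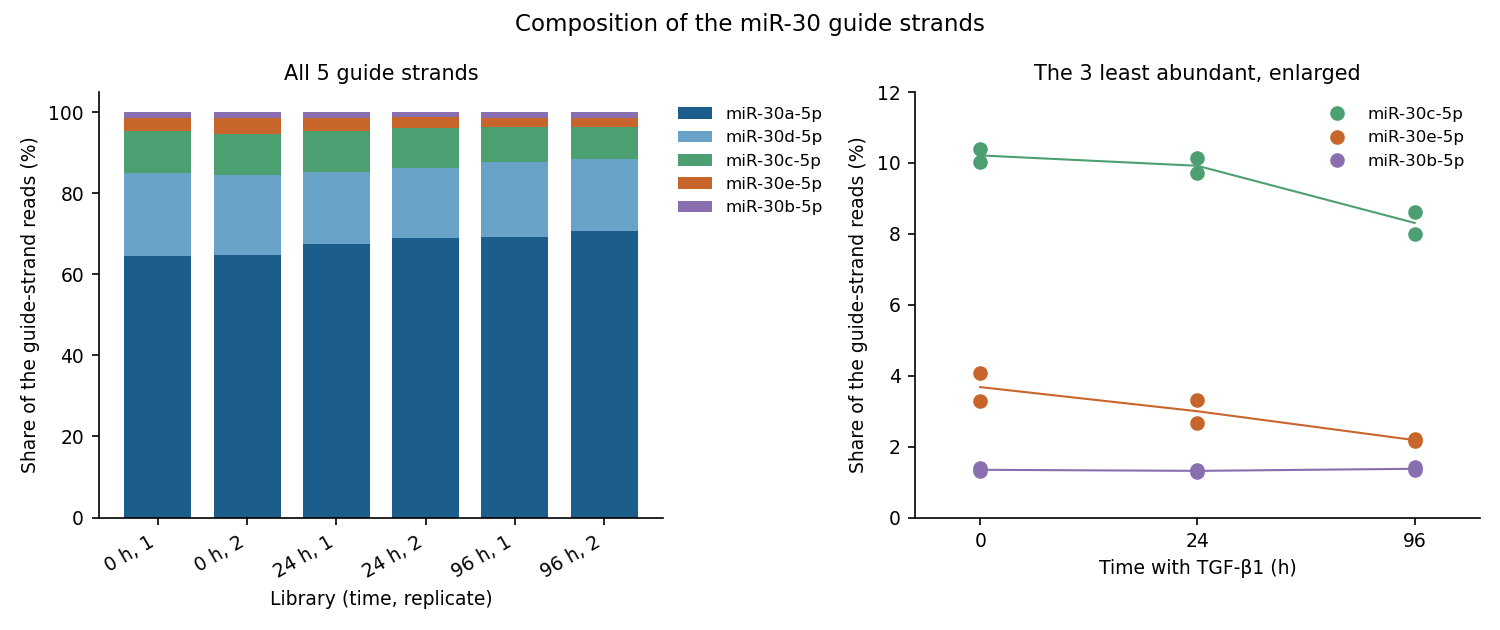
Share of each of the 5 guide strands in the summed guide reads in percent, stacked to 100% for each library (left), and for the 3 least abundant guides against time with TGF-β1 in h with the mean as a line (right). miR-30a-5p widens from 64.5% in the first 0 h library to 70.8% in the second 96 h library, and miR-30e-5p narrows to 2.15 to 2.22% at 96 h.

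As a pool, the 5 guides took 3.48 and 3.56% of all miRNA reads at 0 h, 3.11 and 3.34% in those of 24 h, and 2.86 and 2.96% in those of 96 h. Without miR-21-5p in the total, the mean shares were 7.70% at 0 h, 7.59% at 24 h, and 8.24% at 96 h. For each guide read there were 16.1 and 14.7 reads of miR-21-5p at 0 h, 18.3 and 17.4 in those of 24 h, and 22.9 and 21.6 in those of 96 h. The pool therefore lost ground to miR-21-5p in every later library while its mean share of the remaining reads was highest at 96 h.

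Strand use, the ratio of 5p to 3p reads of a precursor, is likewise free of the library scaling, and was tested over 108 precursors with both strands past the filter. The miR-30a precursor gave 9.42 and 8.58 5p reads per 3p read at 0 h, 9.12 and 9.55 in those of 24 h, and 9.0 and 8.59 in those of 96 h. The 0 h libraries overlapped those of 24 and 96 h, the 96 h ratios lay below those of 24 h, and the log2 ratio at 96 h differed from that at 0 h by -0.03 ± 0.08 (SE; adjusted p = 0.925 with edgeR diffSpliceDGE). The miR-30e precursor gave 2.43 and 3.06 at 0 h, 2.40 and 2.11 in those of 24 h, and 1.75 and 1.68 in those of 96 h. Its 3p strand thereby went from 29.2 and 24.6% of the precursor's reads to 36.3 and 37.3%. The Wilson intervals were 27.8 to 30.7% and 23.4 to 25.9% at 0 h, and 35.1 to 37.6% and 36.0 to 38.7% at 96 h. Those of the 0 h libraries did not overlap each other, so these intervals, which cover counting error only, do not measure the spread between libraries.

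The log2 strand ratio of miR-30e at 96 h against 0 h fell by 0.67 (SE 0.17, adjusted p = 0.0249 with edgeR diffSpliceDGE), and 23 of 108 precursors were called (background 21.3%). This call was lost without the second 0 h library (adjusted p = 0.161), the first 24 h library (0.0567), the first 96 h library (0.118), or the second 96 h library (0.158), over which the difference was -0.70 to -0.50. The difference between the miR-30e and miR-30a precursors was not tested. As the 3p strands of these precursors also differ by 1 base, a read moved between them would enter this ratio, and its part was not tested.

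miR-30d was used almost wholly from its 5p strand. Its precursor gave 183 and 113 5p reads per 3p read at 0 h, 147 and 166 in those of 24 h, and 301 and 230 in those of 96 h. The 96 h libraries were above all others, and the log2 ratio was higher by 0.87 ± 0.40 at 96 h than at 0 h (adjusted p = 0.0213 with edgeR diffSpliceDGE). The value rests on 91 to 152 reads of miR-30d-3p per library, and its call was lost without the second 0 h library (adjusted p = 0.233), the first 96 h library (0.184), or the second 96 h library (0.0769), and with limma's diffSplice (0.0546). At 24 h against 0 h no precursor was called (0 of 108), and at 96 h against 24 h 1 of 108 was (background 0.926%), which was none of the miR-30 precursors.

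**Figure D4:**
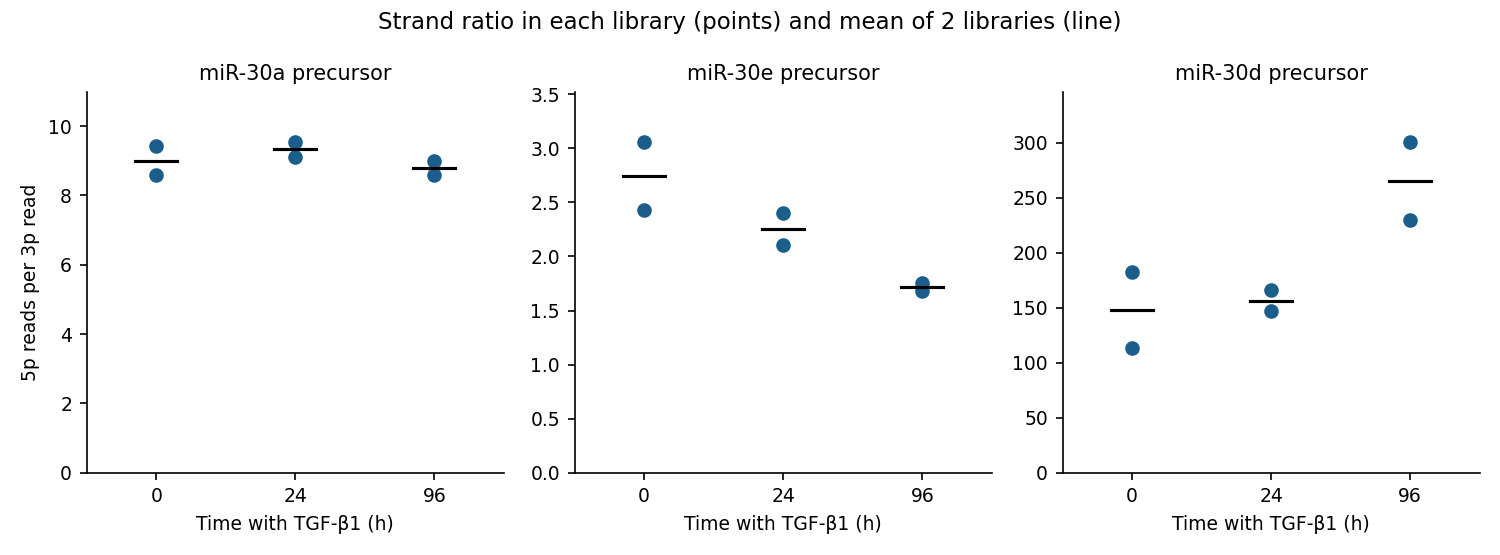
Number of 5p reads per 3p read (vertical axis, from 0) of the miR-30a, miR-30e, and miR-30d precursors in each library against time with TGF-β1 in h, with the mean of 2 libraries as a line. The miR-30a ratio stays between 8.58 and 9.55, the miR-30e ratio is lowest at 96 h (1.68 and 1.75), and the miR-30d ratio is highest there (230 and 301).

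The remaining strands of miR-30 precursors, which are not members, were rare or flat. miR-30b-3p had 24 to 43 reads per library. The 5p to 3p ratio of miR-30b was 37.9 and 34.6 at 0 h, 24.8 and 57.6 in those of 24 h, and 71.5 and 63.1 in those of 96 h. The log2 difference at 96 h against 0 h was 0.89 (adjusted p = 0.0838 with edgeR diffSpliceDGE), and the 24 h libraries lay far apart. miR-30c-2-3p, from the chromosome 6 hairpin, had 237 and 202 TMM-normalized CPM at 0 h and 247 and 240 at 96 h, with a log2-fold change of 0.15 ± 0.15 (adjusted p = 0.433 with edgeR). miR-30c-1-3p, from the chromosome 1 hairpin beside MIR30E, had 16.9 and 16.7 CPM at 0 h, 14.1 and 11.6 in those of 24 h, and 9.76 and 9.77 in those of 96 h. It fell by 0.78 on the log2 scale at 96 h (SE 0.27, adjusted p = 0.0407 with edgeR), on 36 to 56 reads per library, and was below 0 under each of the 5 scalings. Side by side, the 5p and 3p strands of MIR30E had log2-fold changes of -0.29 and 0.37 and those of MIR30A 0.56 and 0.60 with TMM.

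Among miRNAs that are linked to the restraint of the SNAI and ZEB factors, the transcription factors that silence epithelial genes in EMT, 9 of 11 in the table were tested. At 96 h against 0 h 1 of 9 passed both thresholds (background 25.9%). This was miR-200b-3p, a repressor of ZEB1 and ZEB2, at 45.1 and 43.0 TMM-normalized CPM at 0 h, 67.8 and 88.4 in those of 24 h, and 148 and 120 in those of 96 h. It rose by a log2-fold change of 1.60 ± 0.20 (adjusted p = 2.57e-04 with edgeR) and was above 0 under each of the 5 scalings. By the adjusted p alone 2 of 9 were higher (background 22.8%), miR-200b-3p and miR-200a-3p, the latter by 0.81 (adjusted p = 0.00947 with edgeR). A fall was called for 1 of 9 (background 21.2%), miR-34a-5p, a repressor of SNAI1, which fell by 0.73 (adjusted p = 0.00618 with edgeR). The log2-fold changes of the 9 ran from -1.14 for miR-141-3p to 1.60 for miR-200b-3p. Their median of -0.03 (-0.10 for all tested miRNAs) therefore covers moves in opposite directions. The counts of this list were not tested against the background and are no result about the list. In the comparisons that involve 24 h, 0 of 9 passed both thresholds, where 3.46% (from 0 h) and 5.91% (to 96 h) of all tested miRNAs did.

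The miRNAs whose TMM-normalized level followed the summed guides most closely over the 6 libraries were miR-455-5p (Pearson's r = 0.990), miR-495-3p (r = 0.988), and miR-323a-3p (r = 0.988), out of 314 with a mean of at least 10 CPM. Of these 314, 56 had an r above 0.9. The 6 libraries share their scaling factors and fall into 3 time points, and with total reads in place of TMM the correlations of these 3 were -0.77, -0.81, and -0.82. miR-455-5p had 302 and 230 TMM-normalized CPM at 0 h, 296 and 375 in those of 24 h, and 696 and 577 in those of 96 h.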

How the data were processed

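A549 small RNA libraries were prepared with an Illumina kit for a HiSeq instrument, and miRDeep2 was used by the authors to quantify miRNAs. Build hg19 and FastQC are named in the submitters' processing notes. All main results use the counts that the authors deposited, which are whole reads for each pair of mature miRNA and precursor, summed over the 2 runs of a library and not normalized. They also deposited normalized values, a signal that resembles CPM, for 5 of the 6 libraries, used for 1 alternative. There, 1 value column repeats another and was not used. Settings of the read mapping and the miRNA reference set are not given in the sources used here.

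Of 2822 entries, the one with the highest total was kept for each of 2588 mature miRNAs. The analysis used edgeR 4.0.16 in R 4.3.3, with TMM, filterByExpr with a minimum count of 10 (491 miRNAs kept), and the quasi-likelihood F-test on one model of time over the 6 libraries, with Benjamini-Hochberg adjustment over all tested miRNAs. SE is the absolute log2-fold change divided by the square root of F, and for strand ratios it comes from the spread of the log2 ratios of the libraries. The smallest library had 2335185 reads, where 3 reads are 1.28 CPM. Strand use and departure from a seed group were tested with diffSpliceDGE. Shares, ratios, and correlations (log2 of CPM plus 0.5) have no test. Sequences were read from the RefSeq table and placed on GRCh37 with GENCODE v44lift37 annotation. Alternatives used DESeq2 1.42.0, limma 3.58.1, other scalings and filters, a replicate block, thinned libraries, and each library left out. The procedure was also tested on simulated data. A chi-square test between the libraries of a time point gave 38.9 to 77.9 per degree of freedom, so none was a copy of another.

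Named miRNAs are the 8 members, the other 3 strands of their precursors, miR-21-5p, the 3 miRNAs most like the summed guides, and the members of the SNAI and ZEB list past both thresholds. Beside their counts, miR-34a-5p, miR-200a-3p, the marker lists, and miR-205-5p are named too. The members and lists were chosen with earlier results of these data known.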

Additional observations from a re-analysis of the deposited data

How the results depend on the processing

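Depth did not limit the members except miR-30d-3p, with 91 to 152 reads per library, and 2 libraries per time point limit each test. Of the 8 members, 0 passed both thresholds at 24 h against 0 h or at 96 h against 24 h under any alternative. With total counts 33, 215, and 72 miRNAs passed both thresholds at 24 h against 0 h, 96 h against 0 h, and 96 h against 24 h, in place of 17, 127, and 29. At 96 h against 0 h that scaling passed 2 members at both thresholds, and by the adjusted p alone 3 members at 96 h against 24 h, and it turned the log2-fold changes of miR-30a-5p (-0.16), miR-30b-5p (-0.24), miR-30c-5p (-0.57), miR-30d-5p (-0.42), miR-30a-3p (-0.13), and miR-30e-3p (-0.35). limma-trend on the normalized values of 5 libraries, which has a lone library at 96 h that is assumed to vary like the others, turned the same 6 members (-0.17, -0.21, -0.51, -0.38, -0.17, and -0.35), passed 2 members at both thresholds, and called 10 miRNAs at 96 h against 24 h. Total counts without miR-21-5p turned miR-30c-5p (-0.20) and miR-30d-5p (-0.050) and called 26 miRNAs at 24 h, and upper-quartile factors turned miR-30c-5p (-0.056) and called 45 at 96 h against 24 h. The cause was not tested. At 96 h against 24 h 46 miRNAs were called with no filter, 17 where a mean of 10 CPM was required, and 44 with only the libraries compared. With no minimum fold change 35, 216, and 62 were called in the 3 comparisons, among them 3 members at 96 h against 0 h. By the adjusted p alone 5 members passed at 96 h against 0 h with DESeq2 size factors, which added miR-30d-5p and miR-30e-3p, and 5 with the filter of 10 CPM, which added miR-30e-5p (-0.44, adjusted p = 0.0178) and miR-30d-3p (-0.73, 0.0271), and 1 at 96 h against 24 h with DESeq2 size factors, the DESeq2 Wald test, and only the libraries compared. Except with no minimum fold change, the share of all tested miRNAs by the adjusted p alone under these alternatives is not given here. The counts of members by that criterion, here and with single libraries left out, are therefore no result about the family. The guides took 7.70, 7.59, and 8.24% of reads at 0, 24, and 96 h without miR-21-5p. With the counts of miR-30c-5p summed over its 2 entries, which hold nearly the same reads, its share of the guides was 18.5, 18.0, and 15.3%.

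For strand use at 96 h against 0 h, limma's diffSplice called 6 precursors and not miR-30d (0.87, adjusted p = 0.0546), and at 96 h against 24 h it called 0. Where a mean of 10 CPM was required, 2 precursors were called at 24 h, and 7 at 96 h against 24 h, with miR-30d among them (0.75, adjusted p = 0.0479). For the departure from the seed group, limma's diffSplice, which sets each miRNA against the others rather than the sum, gave 0.63 for miR-30a-5p (adjusted p = 0.0125) and 0.0015 for miR-30c-5p. The correlations with the guides turned with total counts (-0.77, -0.81, and -0.82).

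The replicate numbers did not pair the samples: the differences between replicates correlated between time points with r of -0.30 (0 and 24 h), 0.31 (0 and 96 h), and -0.18 (24 and 96 h). With the replicate block, the miR-30e strand change at 96 h against 0 h stayed at -0.67 without its call (adjusted p = 0.0610 with edgeR diffSpliceDGE). The block called 0 precursors at 96 h against 24 h, and changed no other call of the members.

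Leaving out each library in turn called 4 to 36 miRNAs at 24 h against 0 h (lowest without the second 24 h library, highest without the first 0 h library), 93 to 142 at 96 h against 0 h, and 9 to 46 at 96 h against 24 h. By the adjusted p alone 1 to 6 members passed at 96 h against 0 h and 0 to 3 at 96 h against 24 h. Precursors with a called strand change numbered 1 to 31 at 96 h against 0 h and 0 to 5 at 96 h against 24 h. The log2 strand difference ranged at 96 h against 0 h from -0.099 to 0.036 for miR-30a, 0.80 to 0.98 for miR-30b, 0.52 to 1.21 for miR-30d, and -0.83 to -0.50 for miR-30e, and at 24 h from -0.013 to 0.12 for miR-30a, -0.55 to 0.67 for miR-30b, and -0.23 to 0.46 for miR-30d. The departure of miR-30e-5p ranged from -0.93 to -0.63 at 96 h against 0 h, from -0.50 to -0.18 at 24 h against 0 h, and from -0.60 to -0.28 at 96 h against 24 h. miR-30a-5p lost its call without the first (adjusted p = 0.0715) or the second (0.0543) 96 h library, as did miR-30b-5p (0.142 and 0.0512). Without the first 0 h library miR-30d-5p (adjusted p = 0.0148), miR-30d-3p (0.0163), and miR-30e-3p (0.0126) passed the adjusted p at 96 h against 0 h.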
